A study of Mus musculus with 70 samples.

Results

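In liver DNA of BXD mice, 299 stretches of 150 bases that hold sequence variants had methylation values in 2 separate states, with every mouse of a strain in nearly every case in the same state. BXD strains are inbred lines, each a fixed mosaic of the genomes of C57BL/6J (B6) and DBA/2J (D2), and an F1 mouse of these parents carries 1 copy of each genome. Cytosine methylation at CpG dinucleotides is laid down on each copy of a chromosome, and a sequence change near a CpG, or the loss of the CpG itself, can go with a different methylation state on that copy. In affinity capture with a methyl-CpG binding domain protein (MBD-seq), DNA fragments with methylated CpGs are pulled out and sequenced, so that a bin is read more often where more of its CpGs are methylated on more copies. A change in how many copies of a stretch a genome holds, or in how well its reads align to the B6 reference, changes the same value.

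The bins were picked by their values. A bin is a window of 150 bases, and its value in a mouse is log2 RPKM, the log2 of RPKM, reads per kilobase of bin and 1000000 reads of the library, with a prior count of about 2 reads. A bin was taken if it was autosomal, held at least 1 variant by the authors' count, had reads in each of the 69 mice used, and had a gap over 0.7 between neighbours when their values were sorted, with at least 10 mice on each side. Of 58462 bins that could pass, 299 did (0.511%), out of 368300 bins in all. The mice below the widest such gap are called the lower state and those above it the higher state. The gap, the difference between the states and the strains on each side therefore come from the choice and are given as a description, with no test. The members just inside the limit had gaps of 0.7004, 0.7022 and 0.7036. The bins just outside it had gaps of 0.69995 (in an intron of Rtkn2), 0.69964 (near Ccl28) and 0.6988 (in an intron of Eya2).

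There was 1 liver library from each of 70 mice, 67 females and 3 males, and labelled ages at the baseline weighing ran from 30 to 488 days. On chow (CD) were BXD9, BXD40, BXD48, BXD48a, BXD65, BXD65b, BXD73, BXD73b, BXD79, BXD102 and the reciprocal crosses B6D2F1 and D2B6F1, and on a high-fat diet (HFD) were further mice of BXD48, BXD48a, BXD65, BXD73 and BXD73b. That makes 17 strain-by-diet groups of 3 to 8 mice, and 60 BXD and 9 F1 mice entered the results, 55 on CD and 14 on HFD. A BXD65 HFD mouse that the study had excluded was placed in the bins afterwards. The 2 inbred parents themselves were not analysed here, so which state came with which parental genome is not given. BXD48 and BXD48a, BXD65 and BXD65b, and BXD73 and BXD73b are pairs of related sub-strains, and each pair counts as 1 line below, for 7 lines. The 70 libraries held 11028723 to 25828399 reads in bins. Liver tissue was dissected whole, and methylated DNA gives no marker transcripts to check the cell types against.

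The sequences of 6 of the bins with the widest gaps show how unlike the bins are in CpGs and variants. They are the B6 reference sequence of GRCm38.p6 on the plus strand, the build of the deposited coordinates, with each CpG in capitals. The variants themselves have no positions in the deposited values and are not marked.

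chr6:114561001-114561150, intergenic, nearest gene Hrh1, 6 CpGs and 3 variants: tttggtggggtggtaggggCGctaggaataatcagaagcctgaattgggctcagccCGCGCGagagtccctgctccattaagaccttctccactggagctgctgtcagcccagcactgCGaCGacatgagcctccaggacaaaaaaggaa
chr9:123927751-123927900, noncoding exon of Gm51701, 1 CpG and 5 variants: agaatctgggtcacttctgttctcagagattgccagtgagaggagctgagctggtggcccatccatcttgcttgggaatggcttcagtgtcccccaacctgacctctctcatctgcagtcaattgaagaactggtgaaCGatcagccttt
chr8:20947651-20947800, intergenic, nearest gene AY761185, 1 CpG and 3 variants: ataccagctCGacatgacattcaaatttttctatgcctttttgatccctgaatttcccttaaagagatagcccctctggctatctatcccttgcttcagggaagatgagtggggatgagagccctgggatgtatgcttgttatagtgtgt
chr1:185172001-185172150, intergenic, nearest gene Rab3gap2, 8 CpGs and 1 variant: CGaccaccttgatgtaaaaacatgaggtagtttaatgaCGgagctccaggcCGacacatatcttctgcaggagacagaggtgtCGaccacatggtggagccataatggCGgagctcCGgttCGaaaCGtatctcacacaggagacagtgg
chr4:55418701-55418850, start of the noncoding gene Gm12505, 10 CpGs and 1 variant: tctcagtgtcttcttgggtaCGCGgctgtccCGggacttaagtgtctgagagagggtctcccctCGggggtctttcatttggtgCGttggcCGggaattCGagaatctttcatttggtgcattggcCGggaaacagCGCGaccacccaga
chr4:147224701-147224850, intron of Zfp978, 6 CpGs and 1 variant: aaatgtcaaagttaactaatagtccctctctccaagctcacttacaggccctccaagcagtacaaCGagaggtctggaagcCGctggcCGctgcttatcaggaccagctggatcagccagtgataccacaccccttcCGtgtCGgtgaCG

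The widest gap, 2.58, was in the intergenic bin chr6:114561001-114561150, whose nearest gene, 77703 bases away, was Hrh1, a histamine receptor. The 39 mice in the lower state had a lowest value of 2.07, a median of 2.83 and a highest of 3.69 log2 RPKM. BXD40, BXD73 and BXD73b made up the BXD mice in the higher state, where the lowest value was 7.52, the median 7.68 and the highest 7.92. The states were thus 4.84 apart on the log2 scale, or 28.6-fold, with medians of 18 and 544 reads. All 4 D2B6F1 mice, at 6.71, 6.72, 6.88 and 7.06, and all 5 B6D2F1 mice, at 6.27, 6.61, 6.63, 6.78 and 6.92, lay between the states and nearer to the higher one on this scale. On the linear RPKM scale the median F1 mouse was 50.0% of the way from the lower to the higher BXD median.

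The largest fold as deposited, 29.9, was in chr13:119488801-119488950, a bin with 13 CpGs and 11 variants at the start of the noncoding gene 3110070M22Rik. Tmem267, a transmembrane protein gene, lies in the same stretch of chromosome 13. The lower state of the bin had a median of 7 reads. With a prior of 5 reads its difference was 4.5 on the log2 scale, below the 4.64 of chr6:114561001-114561150. BXD73, BXD73b and BXD9 were in the lower state, with values from 1.25 to 2.24 around a median of 1.76. The other BXD mice ran from 5.72 to 7.22 around a median of 6.66. The F1 mice ran from 4.57 to 5.63, below every BXD mouse of the higher state, and their median was 32.4% of the way up on the linear scale.

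In the noncoding exon of Gm51701 on chromosome 9, with a single CpG in the reference, the lower state ran from 0.93 to 2.74 (median 1.94) and the BXD mice of the higher state from 5.15 to 6.79 (median 6.01). BXD48, BXD48a, BXD73, BXD73b and BXD9 were low. The F1 mice, at 4.99 to 6.02, overlapped the higher BXD mice. The bin near AY761185 on chromosome 8, also with a single CpG, had BXD102, BXD73, BXD73b and BXD79 at 1.78 to 3.70 and the other BXD strains at 6.67 to 7.14, with the F1 mice between them at 5.93 to 6.20.

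Near Rab3gap2, whose product is part of a regulator of the vesicle protein Rab3, only BXD79 and BXD9 were low, with values from 0.16 to 1.09 around a median of 0.68 that stands for 2 reads. The BXD mice of the higher state ran from 3.72 to 4.62 (median 4.16) and the F1 mice from 2.94 to 3.65, so that the 3 sets did not overlap. In 5 further intergenic bins with gaps of 1.55 to 1.64, nearest to Gm6558, Gm29854, Gm5131, Olfr1312 and Gm32735, the states were 7.99-fold to 10.4-fold apart, from lower medians of 2 to 5 reads. Folds at so few reads depend on the prior count. The difference near Rab3gap2 was 3.48 on the log2 scale as deposited and 2.80 with a prior of 5 reads, near Gm6558 it was 3.30 and 2.63, and near Gm29854 3.33 and 2.71. With a prior of 0.5 reads these were 4.06, 3.88 and 3.82. Each of the 5 intergenic bins split the strains in another way. BXD40, BXD48 and BXD48a were low near Gm6558, BXD73 and BXD73b near Gm29854, and BXD40 and BXD79 near the olfactory receptor gene Olfr1312. The fewest mice in a higher state among the named bins were at chr8:70932301-70932450, in an untranslated exon of Gm10654, where BXD65 and BXD65b at 3.85 to 4.34 were the only BXD strains above the gap and the F1 mice were at 2.83 to 3.79.

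Some states held more than 1 level. In the bin at the start of Gm12505, the higher state held BXD48 at 5.20 ± 0.15 (mean ± SD, n = 6) and BXD48a at 5.10 ± 0.19 (n = 6), while BXD40 was at 4.22 ± 0.19 (n = 8), BXD102 at 4.20 ± 0.23 (n = 5), BXD9 at 4.19 ± 0.04 (n = 3) and BXD73b at 4.11 ± 0.29 (n = 6). The lowest mouse of BXD48 and BXD48a, at 4.80, was above the highest of the other 4 strains, at 4.61. In the intron of Zfp978, a zinc finger gene, the lower state held BXD102 at 0.30 ± 0.22 (n = 5) and BXD73 at 1.68 ± 0.44 (n = 7), which did not overlap, while BXD73b ran from 0.58 to 2.28. The highest BXD102 mouse was at 0.55.

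**Figure D1:**
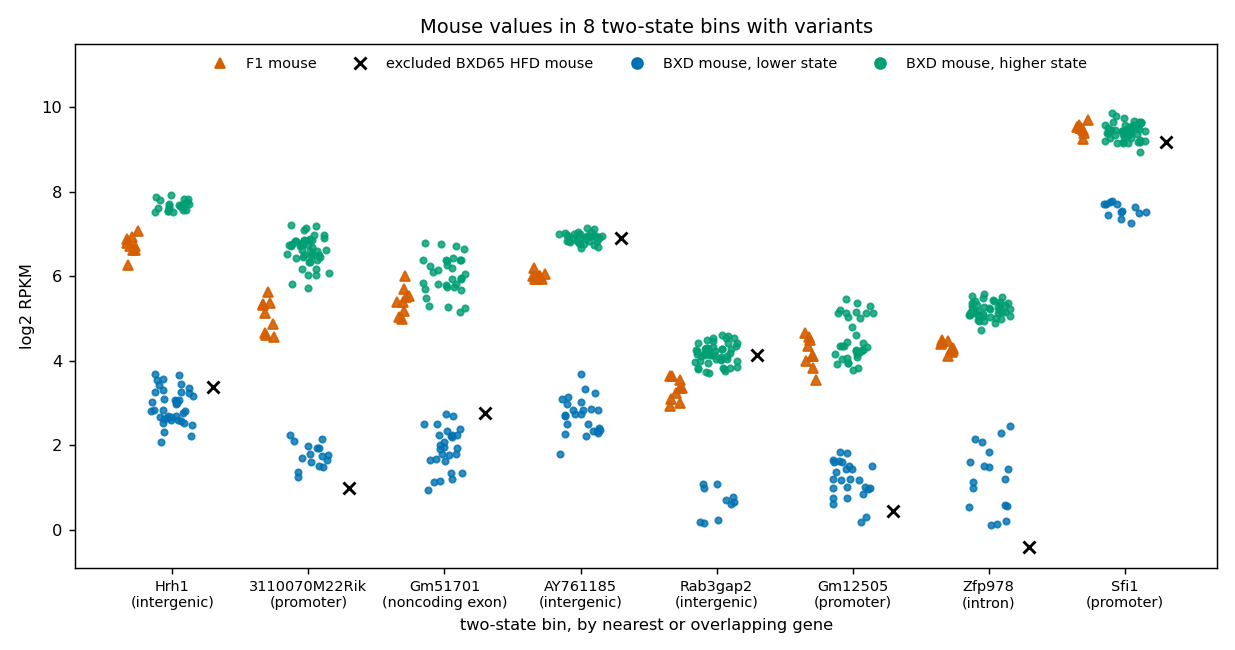
Values (log2 RPKM, vertical axis) of the single mice in 8 of the bins (horizontal axis, by nearest or overlapping gene and annotation). Circles are BXD mice in the lower (blue) or higher (green) state, triangles the 9 F1 mice and the cross the excluded BXD65 HFD mouse, and the median F1 mouse lies between the BXD medians of the states in all but the Sfi1 bin, where it is 9.51 against 9.43 for the higher state.

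Over all 299 members the gap ran from 0.70 to 2.58 with a median of 0.915. The difference between the BXD medians of the states ran from 1.72 to 4.90 (median 2.75), that is 3.28-fold to 29.9-fold (median 6.71-fold). The median member had a lower state at 1.64 and a higher BXD state at 4.37 log2 RPKM, from 6 and 52 reads. In 212 members (70.9%) the lower state had a median under 10 reads. The SD within a state had a median of 0.441 in the lower and 0.251 in the higher state, against 0.225 among the F1 mice. The lower state held 10 to 55 mice, with a median of 22.

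The states followed strain. Every strain and cross lay whole in 1 state in 277 members (92.6%), and in the other 22 at least 1 strain had mice in both. The rule does not use strain, but it asks for at least 10 mice on each side and no strain had over 8, so each state held mice of more than 1 strain. The share of members in which all mice of a strain were in the higher state was 73.6% in BXD40, 71.9% in BXD65 and BXD65b, 62.9% in BXD102, 62.2% in BXD79, 61.9% in BXD48a, 61.5% in BXD48, 56.5% in BXD9, 42.8% in BXD73 and 41.1% in BXD73b. The 10 BXD strains were thus between 41.1% and 73.6%, while B6D2F1 was at 98.0% and D2B6F1 at 99.0%.

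**Figure D2:**
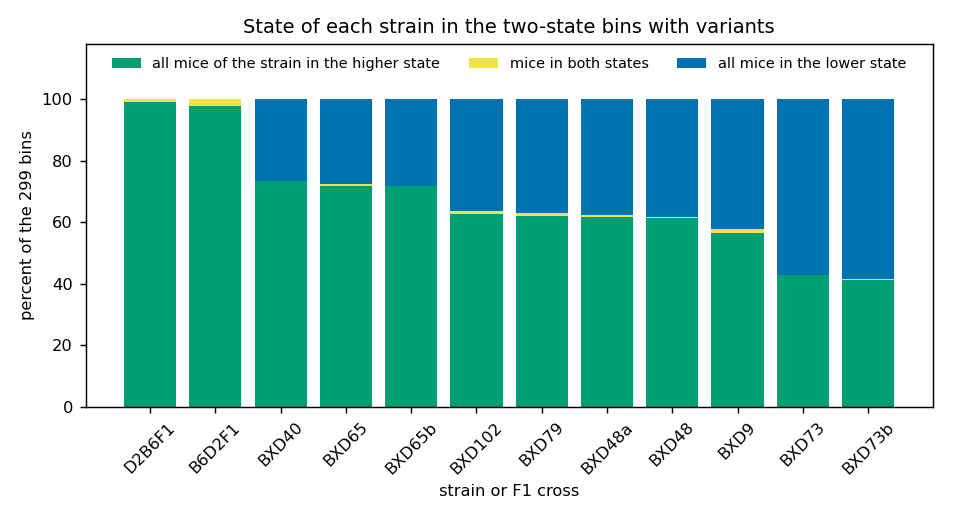
Percent of the 299 bins (vertical axis) in which all mice of a strain or cross (horizontal axis) were in the higher state (green), in which its mice were in both states (yellow) and in which all were in the lower state (blue). The F1 crosses have no bin in which all their mice were lower, and BXD73b has the smallest share in the higher state, 41.1%.

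The strain pattern also held in HFD mice that had no part in setting the gap. The filter on reads still covered all 69 mice, HFD mice included. When the gap was looked for among the CD mice alone, 314 bins passed, of which 263 were members. Of the 4388 values of HFD mice placed in them, 4379 (99.79%) lay on the side of the CD mice of their own strain, taking the middle of the gap as the border, and 159 lay within the gap. In 306 of the 314 bins every HFD mouse was on that side. Likewise, each of the 69 mice was left out of the search for the gap in turn, but not of the filter on reads. It was then placed, again by the middle of the gap, in the bins where the rest of its strain lay in 1 state. For the 60 BXD mice, 99.0% to 100% of the values were on the side of the strain, and over all the bins chosen 0.669% to 6.60% (median 2.64%) fell within the gap. For the 9 F1 mice these shares were 96.9% to 99.7% and 10.9% to 29.8% (median 13.6%), with the highest share in the gap for B6D2F1 replicate 1.

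The members split the 7 BXD lines in many ways. In 253 members every line was whole, and these showed 47 of the 63 splits that 7 lines allow. The commonest split had 27 members, and 48 members had a single line apart from the rest. Among the 253 members with every line whole, those close together on a chromosome mostly shared their split. Only pairs of these members were counted. All 50 such pairs in adjacent bins had the same lines low, as did 144 of 146 pairs at most 10 kb apart with bins between them. From 10 kb to 1 Mb, 164 of 241 pairs (68.0%) had the same split and 60 (24.9%) the mirrored one, with the lines that were low in the first bin high in the second. The same split was shared by 28.7% of 418 pairs at 1 to 10 Mb and by 4.87% of 1601 pairs farther apart on a chromosome.

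Sub-strains were mostly alike. BXD65 and BXD65b were never in opposite states and were together in 297 members. BXD48 and BXD48a were together in 287 members and opposite in 9, and BXD73 and BXD73b were together in 271 and opposite in 27. The widest-gap members with opposite sub-strains all split BXD73 from BXD73b. In an intergenic bin at chr7:31243051-31243200, nearest to Gm37292, BXD73 was at 4.50 ± 0.27 (n = 7) and BXD73b at 1.30 ± 0.56 (n = 6). At chr1:65891701-65891850, nearest to Crygf, a lens crystallin gene, BXD73 was low at 0.82 ± 0.25 and BXD73b high at 4.43 ± 0.23. At chr16:59336101-59336250, nearest to the olfactory receptor gene Olfr205, BXD73 was at 1.12 ± 0.51 and BXD73b at 4.54 ± 0.11.

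**Figure D3:**
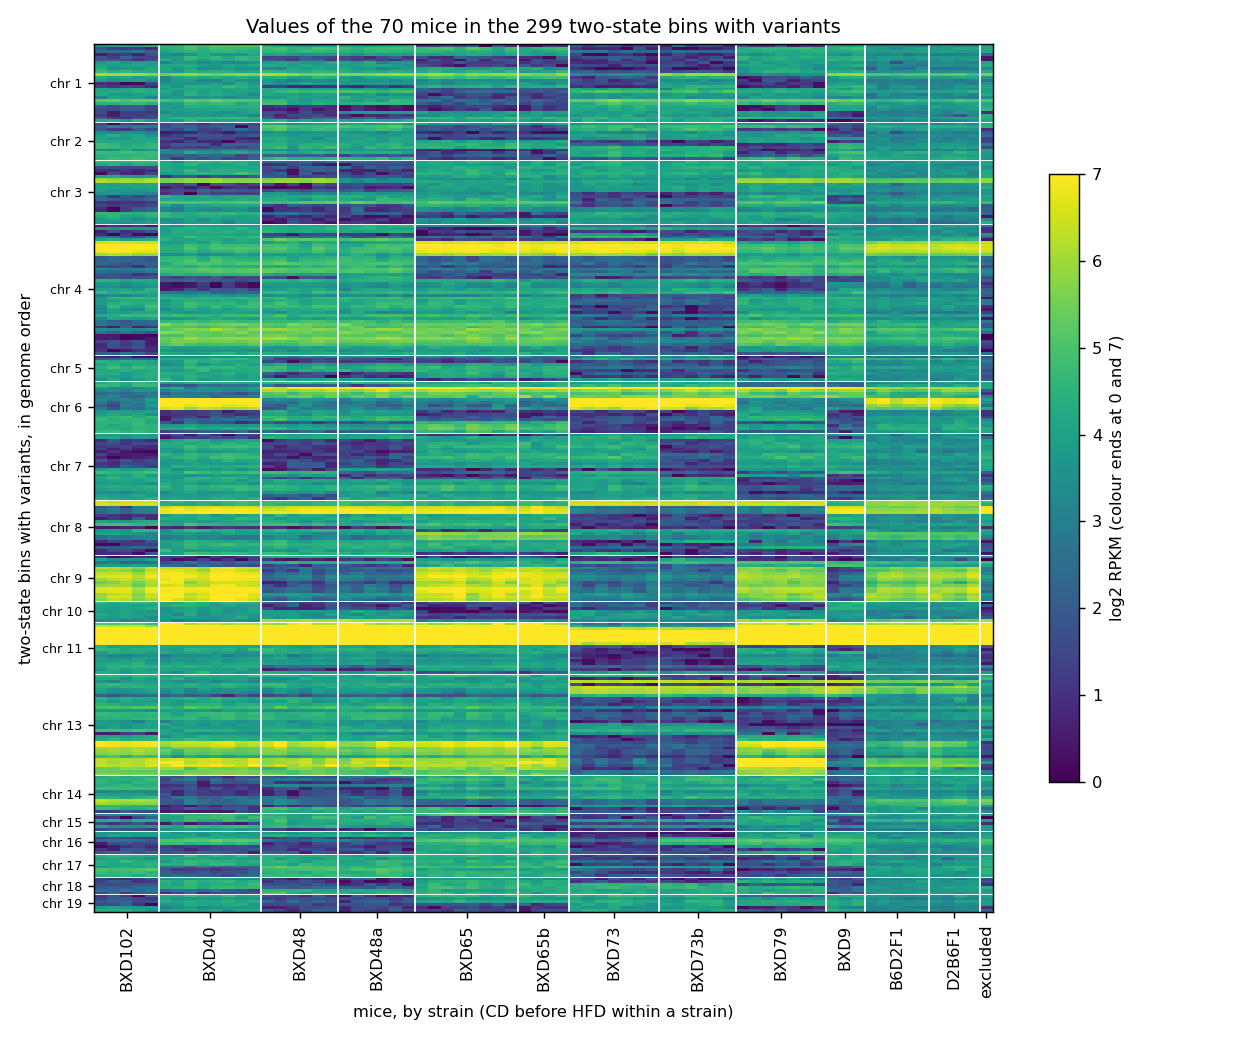
Values of the 70 mice (columns, by strain, CD mice before HFD mice, the excluded mouse last) in the 299 bins (rows, in genome order by chromosome), coloured by log2 RPKM from 0 to 7. Blocks of neighbouring rows switch together between strains, the F1 columns are mostly of a middle colour, and chromosome 12 has no row.

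The F1 mice were placed with the higher state. All 9 were in the higher state in 290 members (97.0%), in the other 9 members exactly 1 F1 mouse was lower, and in no member were all F1 mice low. The F1 values had a part in the choice, since a bin passed only where a gap over 0.7 was left with the F1 mice among the rest, so this count is a description. Within the higher state the F1 mice were mostly at the bottom. Their median was below that of the higher BXD mice in 286 members, the lowest mouse of the state was an F1 mouse in 250, and in 58 all 9 F1 mice were below all BXD mice of the state. The 5 widest-gap members with 1 F1 mouse low were nearest to or in LOC115489629, Fcgr3 (an Fc receptor for immunoglobulin G), Coro2b (a coronin), Gm33206 and Mir6342. In the bin near Fcgr3, for example, the D2B6F1 mice were at 1.81, 2.75, 3.17 and 3.32, with 1.81 the highest value of the lower state, while the B6D2F1 mice were at 3.01 to 3.35.

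To place the F1 mice where they had no part in setting the gap, bins were chosen by the same gap and the same 10 mice on each side among the 60 BXD mice alone. The filter still asked for reads in all 69 mice, so bins in which an F1 mouse had 0 reads were left out. This choice gave 1268 bins, among them 296 of the 299 members (99.0% of the members and 23.3% of the 1268). At least 1 F1 mouse stood in the gap in 1229 of these bins (96.9%) and all 9 did in 219 (17.3%). All 9 were in the higher state in 39 bins and in the lower state in 0. Of the 11412 F1 values, 68.6% were in the gap, 29.8% in the higher state and 1.66% in the lower. F1 mice between the BXD states are thus the common case, and the 296 members among these bins are a minority in which a gap over 0.7 was left once the F1 mice were among the rest.

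On the linear RPKM scale the median F1 mouse stood 51.7% of the way from the lower to the higher BXD median over the 1268 bins (25th to 75th percentile 46.3% to 57.2%), and 968 bins (76.3%) were between 40% and 60%. On the log2 scale the same median place was 69.7%, so that a mouse midway in RPKM looks nearer to the higher state. By mouse, the median linear place was 51.8% ± 1.73 (mean ± SD over 9 F1 mice, range 48.4% to 53.9%). The 5 B6D2F1 mice were at 48.4%, 50.0%, 51.7%, 52.3% and 53.9%, and the 4 D2B6F1 mice at 51.5%, 51.9%, 53.1% and 53.3%, so the crosses overlapped. Among the members the place was 54.7% (50.6% to 61.5%) and among the other chosen bins 50.7%. Since the F1 values had a part in choosing the members, the difference between these sets is a description.

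**Figure D4:**
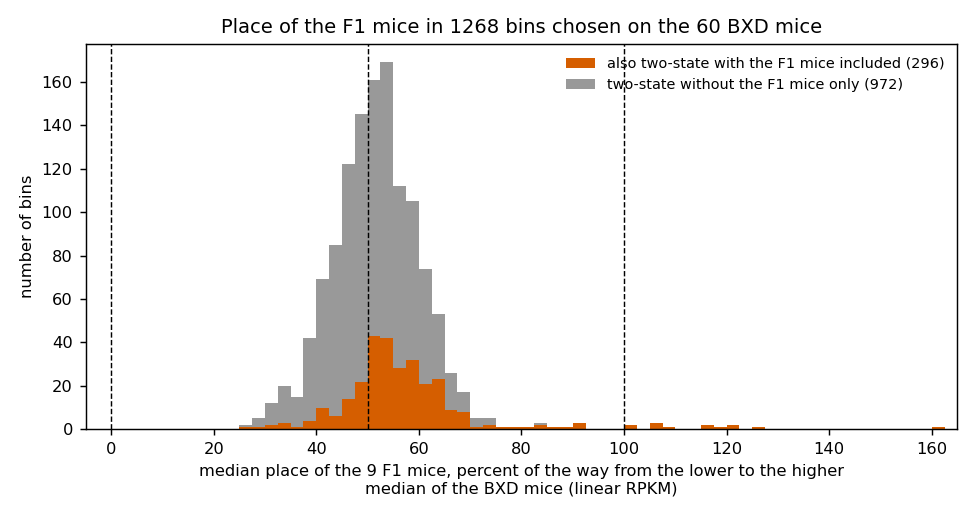
Number of bins (vertical axis) by the median place of the 9 F1 mice (horizontal axis, percent of the way from the lower to the higher BXD median on the linear RPKM scale) in the 1268 bins chosen on the 60 BXD mice, with the 296 that are also members in orange and the rest in grey. Dashed lines mark 0, 50 and 100%, and the median is 51.7%.

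A few members were far from the middle. In 12 the place was under 40%, and 8 of these were in the stretch of chromosome 13 that holds Tmem267 and 3110070M22Rik, down to 27.4% in an intron of Tmem267. In 13 members it was over 100%, with the median F1 mouse above the median of the higher BXD mice, and 6 of these were at Sfi1, a spindle assembly gene on chromosome 11. At chr11:3193651-3193800, BXD73 was at 7.63 ± 0.14 (n = 7) and BXD73b at 7.51 ± 0.17 (n = 6), and the other BXD mice ran from 8.95 to 9.86. The F1 mice ran from 9.24 to 9.70. The lower state had a median over 100 reads in only 6 members, all at Sfi1, and in this bin the medians were 518 reads in the lower and 1721 in the higher state. The highest place, 160%, was at chr14:51752251-51752400, nearest to Ear-ps3, where the F1 median was 4.39 and the higher BXD median 3.80.

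Members lay in clusters. They formed 243 runs of adjacent bins, of which 37 had 2 or more bins, and 158 clusters when members within 1 Mb of the next were joined, of which 104 had 1 member and 16 had 4 or more. The longest run was 6 bins in Gm51701 on chromosome 9 (chr9:123927601-123928500), with differences of 3.52 to 4.06 and F1 places of 52.3% to 67.8%. A cluster of 12 members within 0.006 Mb there had 1 split throughout, and all 18 bins of that stretch held variants. A second cluster of 12, over 0.121 Mb at Tmem267 and 3110070M22Rik on chromosome 13, also had 1 split, with BXD73, BXD73b and BXD9 low. The third cluster of 12, over 0.555 Mb on chromosome 4, lay among the major urinary protein genes Mup17, Mup19 and Mup21, whose products are made in the liver and carry pheromones, and held 3 splits. Its run of 5 bins had BXD40, BXD48, BXD48a, BXD79 and BXD9 low, and elsewhere in it 6 members had the other 5 BXD strains low. In the widest-gap bin of the run, chr4:61571551-61571700, values were 4.20 to 5.11 in the lower state, 6.77 to 7.33 in the BXD mice of the higher state and 6.30 to 6.58 in the F1 mice.

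A cluster of 11 over 1.39 Mb on chromosome 4 held Zfp978, Zfp933 and Zfp992, zinc finger genes, and the pheromone receptor pseudogene Vmn2r-ps16, with BXD102, BXD73 and BXD73b low in all 11. A cluster of 9 over 0.405 Mb on the same chromosome held Pramel14, of the Prame-like family, with BXD73 and BXD73b low in all 9. The cluster at Sfi1 had 8 members within 0.00135 Mb, with BXD73 and BXD73b low and differences of 1.72 or more. When mice with 0 reads were allowed, the same gap rule passed 57 further bins with variants in the stretch of the Zfp978 cluster and 11 in that of the Mup cluster. Bins without variants that passed the gap, whether or not a mouse had 0 reads, numbered 70 and 29 in these stretches.

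By annotation, 193 of the 299 members (64.5%) were intergenic, against 35.2% of the 58462 bins that could pass, 70 (23.4%) were in introns against 35.5%, 8 (2.68%) in coding exons against 19.3%, and 8 (2.68%) in promoters against 3.12%. A promoter here is the 1000 bases before to 100 after a start. Many members lay in repeats. In 183 members (61.2%) over 50% of the bases were soft-masked, that is marked as repeats in the reference, against 24.8%, and the median member was 89.3% masked against 12.7%. The median two-state bin without variants was more masked still, at 100%. Repeats align less surely than other sequence, and the part of alignment in these values was not tested. Members had 1 to 26 CpGs with a median of 6, against 5, and 51 (17.1%) had 10 or more against 5.42%. By chromosome the share of bins that passed was highest on chromosome 13, 35 of 2264 (1.55%), and on chromosome 4, 45 of 5691 (0.791%), and on chromosome 12 it was 0 of 1909.

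Passing the rule went with the number of variants. Of bins with 1 variant 0.307% passed, of those with 2 variants 0.466%, with 3 variants 0.744%, with 4 variants 0.814% and with 5 or more 1.56%, while of 279762 bins without variants 916 passed (0.327%). Bins with 1 variant thus passed about as often as bins with none. The 916 two-state bins without variants held more CpGs than the members, with a median of 8 against 6, and more of their bases were masked. Their median difference was 2.85 against 2.75, their median F1 place 55.9% against 54.7%, and every F1 mouse was in the higher state in 96.0% against 97.0%. In 60 members an adjacent bin was a two-state bin without variants, and 64 of these 65 pairs put the same 69 mice in the same states.

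The difference reached past the bins that passed. Of 370 bins next to a member that were not members themselves, 370 were higher in the same mice. The 179 of them without variants had a median difference of 2.91 (25th to 75th percentile 2.26 to 3.36) and the 191 with variants 2.26 (1.82 to 2.85). Bins with variants that passed the rule are members and so are not among the 191, while bins without variants that passed it otherwise remain among the 179. A captured fragment can span neighbouring bins, which therefore share reads. At 600 bases the medians were 2.65 in 61 bins without variants and 1.22 in 61 with them, and at 3150 to 6000 bases 2.14 and 1.44. At 60000 to 69900 bases they were 0.15 and 0.46, and about 1 Mb away 0.04 and 0.30. Near members the bins without variants had the larger median difference, and at the 2 farthest distances the bins with variants did. Since passing bins were left out only among those with variants, this comparison is shaped by the choice and is given as a description. Bins of clusters supply many of the near values, so single bins are not independent.

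**Figure D5:**
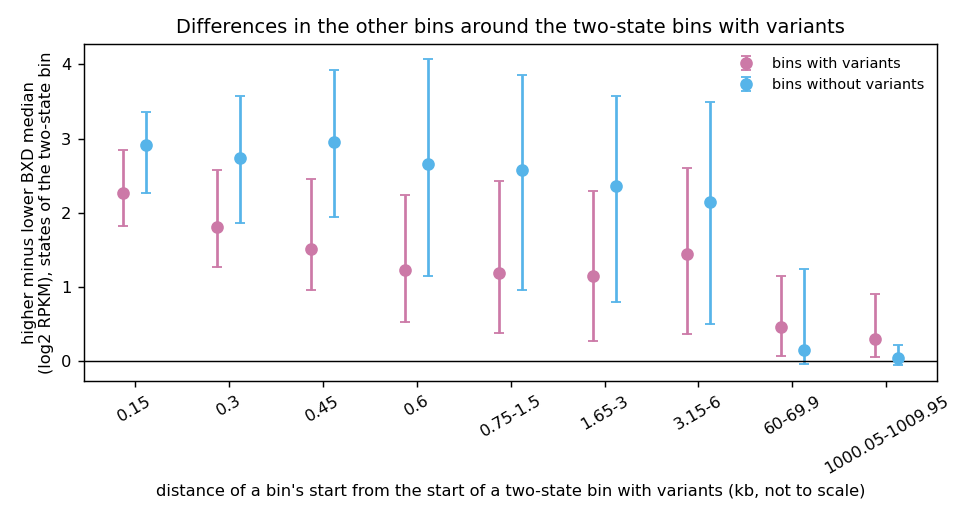
Difference between the BXD medians of a member's higher and lower mice (vertical axis, log2 RPKM) in bins that are not members, by distance from the member (horizontal axis, kb, not to scale), for bins with (pink) and without (blue) variants. Points are medians and bars run from the 25th to the 75th percentile, and the medians fall from 2.26 and 2.91 next to a member to 0.30 and 0.04 about 1 Mb away. Bins without variants that passed the same rule are among the blue ones.

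Within genes there were 106 members in 73 genes, led by Tmem267 with 9, Sfi1 with 8 and Gm51701 with 6. A bin in a coding exon of Tmem267 (chr13:119495101-119495250) had BXD73, BXD73b and BXD9 at 1.01 to 2.34, the other BXD mice at 4.45 to 6.0 and the F1 mice at 3.79 to 4.71. Exonic bins of the noncoding genes Gm11687 and Gm8956 had 19 CpGs with 5 variants and 10 CpGs with 17 variants, with folds of 5.17 and 7.42. Counting every gene that a bin overlaps or whose promoter it lies in, 9069 genes had a bin that could pass and 90 of them held a member (0.992%). Against that share, lists of few genes say little. The number with a member was 0 of 10 such genes of liver function, 0 of 13 imprinted genes, 0 of 6 genes of the methylation machinery and 0 of 6 genes known to differ between B6 and D2.

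Diet, age and the direction of the F1 cross were not used by the rule and were tested with limma on all 368300 bins, with Benjamini-Hochberg adjustment over them and a limit of 0.05. For HFD minus CD in the 5 strains with both diets, 0 bins were called (0% of all bins) and so 0 members, and 16 members had an unadjusted p of 0.05 or less (5.35%, against 4.83% of all bins). The fitted differences of the members ran from -0.33 to 0.38 log2 RPKM, with a median standard error of 0.110. For age at collection within strain-by-diet groups, 187 bins were called (0.0508% of all bins), of which 0 were members. Unadjusted, 24 members (8.03%, against 5.90% of all bins) had a p of 0.05 or less, and slopes ran from -0.06 to 0.08 log2 RPKM per 100 days. For B6D2F1 minus D2B6F1, 8 bins were called (0.00217% of all bins), of which 0 were members, with 12 members at an unadjusted p of 0.05 or less (4.01%, against 4.52%) and differences from -0.49 to 0.44. The smallest adjusted p in the members by limma was 0.999 for diet and 0.325 for age. The fitted differences for diet and for the crosses were all smaller than the 1.72 that is the smallest difference between states. The choice itself limits them, since every strain and cross lay whole in 1 state in 277 members. The age slopes are per 100 days and are not set against it.

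The excluded BXD65 HFD mouse was on the lower side in 115 members, on the higher side in 145 and inside the gap in 39 (13%), and 6 members had 0 reads in it. With the 39 left out, it was on the same side as BXD65 and BXD65b in 60.4% of the members, as BXD73 in 58.5% and as the other strains and crosses in 46.5% to 57.3%. With the 39 placed by the middle of the gap, these shares were 57.9%, 58.2% and 47.2% to 57.2%. The other 2 BXD65 HFD mice were on the higher side in 71.9% of the members, as was the strain. The excluded library had 11441520 reads in bins, near the low end of the series.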

How the data were processed

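MBD-seq libraries from the liver of single mice were processed by the authors. Per the labels and the study's methods, FastQC 0.11.8 served for quality checks, Bowtie2 2.3.4.3 for alignment to mm10 (the GRCm38 build) and SAMtools 1.9 for handling of alignments, and reads were counted in bins of 150 bases, without bins that had no CpG or few reads. What was deposited is log2 RPKM per bin, computed by the authors with library normalization factors, and the numbers of variants and CpGs per bin were deposited beside them. The prior count, 2.00 reads on average, was inferred from the steps between low values, which gave whole reads within 0.05 for 100% of values in every library. The lowest value, -0.41, stands for 0 reads. For pairs of libraries, the squared difference in reads of the median bin was set against that of counting noise. The ratio had a median of 1.27 in the 127 pairs within a group, and was at least 1.03 over all pairs of the 69 mice. The labels do not say that litters or cages were separate, so p-values measure the spread between these mice.

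The members, the gene lists and the rule for named bins (widest gaps, exonic or promoter bins, listed genes, opposite sub-strains, F1 mice in both states, longest runs) were chosen with earlier results of these data known. The fits used limma 3.58.1 in R 4.3.3, two-sided, with strain as a term for diet and strain-by-diet group for age and the crosses, and were tested on simulated data. Age at collection came from the study's table of mice, only as a model term. Genes and repeats were taken from RefSeq GRCm38.p6, where the number of CpGs was within 1 of the deposited number in 368225 of 368225 bins with sequence. Python 3.11.15 was used. Alternatives were other gaps, mice per side, prior counts (0.5 and 5 reads), filters, centring and sets of mice.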

Additional observations from a re-analysis of the deposited data

Results flagged for a closer look

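The excluded BXD65 HFD mouse had its value inside the gap in 39 of the 299 members, that is 13%, in a library left out of the choice and of the reported fits. When left out of the search for the gap, but not of the filter on reads, the 60 BXD mice fell inside the gap in 0.669% to 6.60% of the bins and the 9 F1 mice in 10.9% to 29.8%.

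On chromosome X, which the rule leaves out, 3 of 848 bins with variants and with reads in each of the 69 mice had 2 states by the same rule (0.354%).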

How the results depend on the processing

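The number of members depends on the rule. With a gap over 0.5 it was 635 and over 1 it was 116, without the filter on mice at the lowest value 1908, and without the F1 mice 1268. Leaving out the strain B6D2F1 gave 510, and leaving out any other strain or cross gave 278 to 406, of which 251 to 299 were among the 299. Leaving out each mouse in turn gave 290 to 336. The filter on reads used the same 69 mice in every setting but the one without it. With at least 5 or 15 mice on each side it was 393 or 225, with priors of 0.5 and 5 reads 370 and 200, with all 70 mice 287, with females 356, with CD mice 314, and with each mouse centred on its median 338.

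Every F1 mouse was in the higher state in 573 of the 635 bins at a gap over 0.5 and in 115 of the 116 at a gap over 1, but in only 39 of the 1268 bins chosen without the F1 mice. Every strain lay in 1 state in 525 of the 635 and in 115 of the 116. The excluded mouse was in the gap in 17 of the 116. The F1 place was 51.5% to 52.0% under other gaps and priors and 54.0% with each mouse centred on its median, and the cause was not tested.

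For diet, age and the crosses, 0 members were called in any of the 80 other fits. Over all bins, 13 were called for the crosses with females and 0 with only bins that had reads in every mouse. Leaving out mice or groups gave 0 to 1 bins for diet, where leaving out BXD48 HFD replicate 3 gave the 1, 126 to 205 for age and 8 to 11 for the crosses. At the 26 named bins, 110 of 130 values of the difference under other priors, centring or sets of mice were within 1 SD of the reported one, the other 20 were all under other priors, and 0 turned. Alternatives for the F1 place, the excluded mouse and the named bins, and the placing of left-out mice, sub-strains and HFD mice, were chosen after seeing the data.

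The labels give no replicate numbers to pair CD with HFD mice, and the diet fit has strain as a term. A fit that pairs mice of a strain by label age was not run. Depth limits the lower state, in which 212 members had a median under 10 reads.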
